A study of Mus musculus with 8 samples.

Results

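Map1b, Uchl1, Nes, Mybph, Tubb6, Tubb2b, Dpysl3, Enah, Tpm4 and Dstn are 10 genes, most of them coding for parts of the microtubule, intermediate filament and actin skeleton, that are associated with growing, young or regenerating cells. They were taken by gene symbol, with the single-gene probe set of highest mean over the 8 arrays standing for each gene, and all 10 were found among the 14860 genes measured, each with 1 probe set. The genes were chosen by their difference between ATF4 and empty vector on these same arrays, so their differences are given as a description without a test. The arrays hold RNA of the tibialis anterior, a leg muscle, from fed male C57BL/6 mice aged 8 weeks, harvested on day 11 after DNA was driven into the muscle by electroporation. The left muscle received 25 µg of empty pcDNA3 and the right muscle 25 µg of pCMV-ATF4-FLAG, in which a viral CMV promoter drives ATF4, a stress-response transcription factor, carrying a FLAG tag. There were 4 such experiments, each with 1 array of either muscle, hence 4 pairs. The RNA came from bulk muscle, in which electroporation reaches only some fibres, so a change in transfected fibres and a change in their neighbours cannot be told apart, nor can fewer cells of a type and less RNA per cell. How many mice stand behind an experiment is not stated in the labels.

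A mature muscle fibre keeps its shape with desmin filaments, a stable microtubule grid and the sarcomeres. A fibre that is being built or rebuilt also carries nestin filaments, dynamic microtubules made of additional tubulin isotypes, and actin regulators of moving cells. Many of these genes are equally known from growing neurons, where Map1b, Uchl1, Tubb2b and Dpysl3 are abundant, and some are active in smooth muscle and connective tissue. All levels below are log2 values after RMA, the authors' array normalization, and all differences are ATF4 minus empty vector on that log2 scale.

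RefSeq promoter sequences (build GRCm38.p6) were at hand for 7 of the 10 genes. Windows before the transcription start are shown for the 4 genes whose arrays separated between the groups and for Dstn, the gene that was lower, to set out what the promoters of genes with like and opposite differences hold. They are written 5′ to 3′ in the direction of the gene, capitals mark every match to a motif searched, and the Mybph window ends earlier than the others because the gene table places the gene's start 30 bases before the promoter table does.
Map1b, chr13:99516603-99516852, minus strand: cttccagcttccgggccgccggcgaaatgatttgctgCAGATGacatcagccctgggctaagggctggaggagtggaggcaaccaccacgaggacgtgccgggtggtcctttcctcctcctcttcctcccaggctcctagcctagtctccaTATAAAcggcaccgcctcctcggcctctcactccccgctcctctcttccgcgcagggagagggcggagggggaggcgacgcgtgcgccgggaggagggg
Uchl1, chr5:66675871-66676120, plus strand: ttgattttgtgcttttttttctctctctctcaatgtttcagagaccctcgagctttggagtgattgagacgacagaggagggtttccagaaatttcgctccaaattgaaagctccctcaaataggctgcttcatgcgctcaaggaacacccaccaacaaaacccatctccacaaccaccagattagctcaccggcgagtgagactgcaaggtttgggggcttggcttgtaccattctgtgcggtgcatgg
Nes, chr3:87970843-87971092, plus strand: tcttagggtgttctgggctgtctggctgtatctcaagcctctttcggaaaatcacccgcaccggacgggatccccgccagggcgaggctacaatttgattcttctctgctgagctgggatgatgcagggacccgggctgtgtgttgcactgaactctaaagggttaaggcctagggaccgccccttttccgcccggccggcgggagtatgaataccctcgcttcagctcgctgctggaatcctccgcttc
Mybph, chr1:134193198-134193417, plus strand: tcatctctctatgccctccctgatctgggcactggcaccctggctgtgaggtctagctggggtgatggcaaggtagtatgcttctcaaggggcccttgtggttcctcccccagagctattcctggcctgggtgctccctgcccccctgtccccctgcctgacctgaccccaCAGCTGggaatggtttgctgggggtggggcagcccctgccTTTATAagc
Dstn, chr2:143915081-143915330, plus strand: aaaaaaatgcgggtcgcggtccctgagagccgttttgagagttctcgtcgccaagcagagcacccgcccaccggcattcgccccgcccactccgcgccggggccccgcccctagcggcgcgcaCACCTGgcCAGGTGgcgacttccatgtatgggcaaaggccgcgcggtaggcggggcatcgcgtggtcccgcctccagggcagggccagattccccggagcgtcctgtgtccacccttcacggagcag
The capitals in Map1b, Mybph and Dstn are E-boxes (CANNTG, the site of myogenic factors such as MyoD and myogenin) and, in Map1b and Mybph, TATAAA or its reverse complement. The Enah window, which is not shown, lies inside the span that the gene table gives that gene. It held no match to any motif and is still counted among the 7. In the full 250 bases before the start, E-boxes were found in 3 of the 7 promoters, against 66% of 27025 mouse genes with a window of this length. TATAAA on either strand was found in 2 of 7, against 13%. The TGACG half-site of cyclic AMP response elements, on either strand, was found in 1 of 7, Tpm4, which held 2 of them, against 17.9%. The core of the composite site of ATF4 with C/EBP factors, TGATGNAA on either strand, was in 0 of 7, against 3.53%, and CArG boxes and MEF2 sites were in 0 of 7, against 1.4% and 3.01%. These letters describe the windows and say nothing about binding, and E-boxes and the other motifs did not overlap in the windows shown.

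Mature fibre genes marked the tissue as the labels give it. All 12 measured markers, among them Acta1, Ckm and Atp2a1, lay above the median of all probe sets, and they averaged 9.74 to 9.88 on the control arrays and 9.69 to 9.89 on the ATF4 arrays. By mean difference 10 of the 12 were lower with ATF4 and 2 higher, with a median of -0.05. Array medians ran from 4.29 to 4.44. Atf4 itself differed by 0.18 (SE 0.11, n = 4, adjusted p = 0.846 by limma), so its probe set does not check the labels. Each SE given here is that of the limma fit, which shares information on the variance across probe sets. The SE of the 4 Atf4 differences alone was 0.08. The SDs given for the 10 genes are plain SDs of 4 differences. Over all 16755 probe sets 3 passed an adjusted p of 0.05 (limma, Benjamini-Hochberg), which is 0.0179%, all 3 higher. The single genes among them were H19 and Tnni1, slow troponin I, which rose by 1.26 (SE 0.11, adjusted p = 0.025 by limma). None of the 10 genes was among those 3. Under other settings Map1b and Uchl1 were among the calls with a random block for the pairs and without the dimmest 50% of probe sets, and Uchl1 alone of the 10 without the dimmest 25%. Uchl1 passed the filter on the dimmest 50% only through its ATF4 arrays. Its mean was 4.11 with empty vector and 5.44 with ATF4, where the median of all probe sets was 4.38. Nothing is read from the calls of the 10 genes, since the same contrast chose them.

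In 4 of the 10 genes, Map1b, Uchl1, Nes and Mybph, every ATF4 array lay above every empty vector array. Over all genes 1.47% separated in this way. None of the 10 lay wholly below, where 0.713% of genes did. The median difference of the 10 genes was 0.31, a 1.24-fold change, against 0.02 over all genes. With ATF4, 7 genes were higher in all 4 experiments, where 8.35% of genes were, and 1, Dstn, was lower in all 4, where 6.66% were. Tubb2b and Tpm4 did not keep a direction. By direction, then, 8 of the 10 genes were alike between experiments, 7 with the higher level and 1 with the lower level in the ATF4 muscle.

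**Figure D1:**
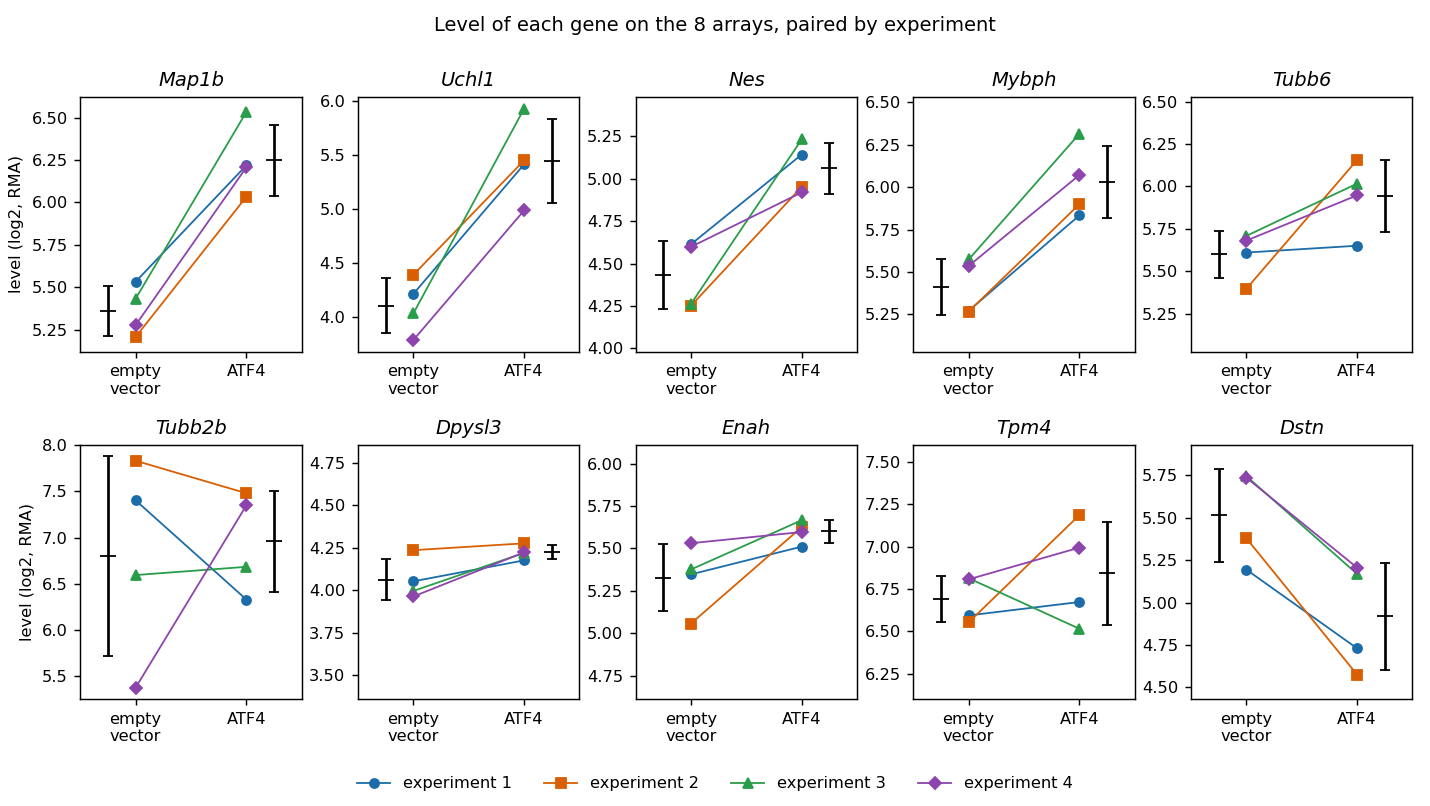
Level of each of the 10 genes (y axis, log2 RMA value; each panel has its own range) with empty vector and with ATF4 (x axis), 1 line per experiment; black bars give the mean and SD of 4 arrays. Map1b, Uchl1, Nes and Mybph separate fully, Dstn is lower in all 4 experiments, and the lines of Tubb2b cross.

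Among the microtubule genes, Map1b stood highest above its control. Map1b codes for microtubule-associated protein 1B, which binds and stabilises dynamic microtubules in growing axons and is cleaved into a heavy and a light chain. Its level was 5.53, 5.21, 5.43 and 5.28 with empty vector in experiments 1 to 4 and 6.22, 6.03, 6.53 and 6.21 with ATF4. The lowest ATF4 array was 0.50 above the highest empty vector array. The differences were 0.69, 0.83, 1.10 and 0.93, with a mean of 0.89 ± 0.17 (SD, n = 4), or 1.85-fold.

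The tubulins were less even. Tubb6, a β-tubulin isotype known from regenerating and dystrophic mouse muscle, was at 5.61, 5.40, 5.71 and 5.68 with empty vector and at 5.65, 6.16, 6.02 and 5.95 with ATF4. The ATF4 array of experiment 1 lay inside the empty vector range, and the other 3 lay above it. The mean difference was 0.34 ± 0.30 (SD, n = 4), from 0.04 in experiment 1 to 0.76 in experiment 2, and it was 0.21 without experiment 2.

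Tubb2b, a β-tubulin of developing neurons, varied more within a group than between the groups. With empty vector it was at 7.40, 7.83, 6.60 and 5.38, and with ATF4 at 6.33, 7.48, 6.68 and 7.35. Its range over the 4 empty vector arrays was 2.45, where the median range over all genes was 0.52. Its differences of -1.07, -0.35, 0.09 and 1.97 average to 0.16 ± 1.30 (SD, n = 4), and without experiment 4 the mean was -0.44, without experiment 1 it was 0.57. Its closest paralog Tubb2a, which is nearly identical in sequence, differed by 0.58, -0.94, 0.23 and -0.98. Tubb2a was at 6.97, 5.31, 6.35 and 5.59 on the ATF4 arrays, high in experiment 1, where Tubb2b was lowest, and low in experiments 2 and 4, where Tubb2b was highest. Over the empty vector arrays Tubb2a ranged only from 6.12 to 6.57 while Tubb2b ranged from 5.38 to 7.83. Whether probes of one pick up transcripts of the other was not tested.

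**Figure D2:**
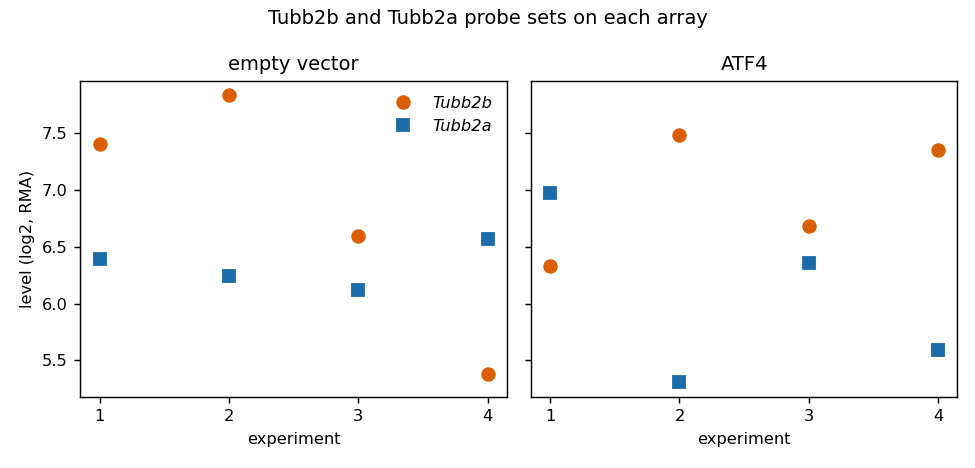
Level (y axis, log2 RMA value) of the Tubb2b and Tubb2a probe sets in experiments 1 to 4 (x axis) with empty vector (left) and ATF4 (right); each point is 1 array, and the 2 probe sets' levels are not to be set against each other. On the ATF4 arrays Tubb2a is highest in experiment 1, where Tubb2b is lowest.

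Dpysl3 codes for a collapsin response mediator (CRMP4) that links tubulin and actin in extending neurites. It ranged from 3.96 to 4.24 with empty vector and from 4.18 to 4.28 with ATF4, so the groups overlapped. The difference was small but of 1 sign, from 0.04 to 0.26, with a mean of 0.16 ± 0.10 (SD, n = 4). Its signal was below the median of all probe sets, so that 9 of 10 passed a filter on the dimmest 50% and all 10 one on the dimmest 25%. Of the 9, Uchl1 passed the 50% filter only through its ATF4 arrays.

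Nes, Mybph and Uchl1 completed the genes with separated groups. Nes codes for nestin, an intermediate filament protein of neural and muscle progenitors that pairs with vimentin or desmin. Its level was 4.61, 4.25, 4.26 and 4.60 with empty vector and 5.14, 4.95, 5.23 and 4.92 with ATF4. Of the 4 empty vector values, 2 lay below their array's median signal. The gap between the groups was 0.31, and the differences of 0.53, 0.70, 0.97 and 0.32 averaged 0.63 ± 0.27 (SD, n = 4), or 1.55-fold. Its partners Des and Vim were singled out after their values were seen. Des differed by -0.04 (SE 0.10, adjusted p = 0.962) and Vim by 0.01 (SE 0.12, adjusted p = 0.992, both limma).

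Mybph, myosin-binding protein H of the thick filament, had the most even differences of the 10. Its level was 5.27, 5.27, 5.57 and 5.54 with empty vector and 5.83, 5.90, 6.32 and 6.07 with ATF4. The differences of 0.56, 0.63, 0.74 and 0.54 averaged 0.62 ± 0.09 (SD, n = 4), or 1.53-fold. All ATF4 arrays lay at least 0.26 above the empty vector arrays.

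Uchl1 codes for a ubiquitin C-terminal hydrolase that is very abundant in neurons and is itself no part of the cytoskeleton. Its level was 4.21, 4.39, 4.03 and 3.79 with empty vector and 5.41, 5.45, 5.93 and 4.99 with ATF4. The lowest ATF4 value was that of experiment 4, which also had the lowest empty vector value. The differences of 1.20, 1.06, 1.89 and 1.20 averaged 1.34 ± 0.38 (SD, n = 4), or 2.52-fold, the highest mean difference of the 10. All 4 empty vector values lay below the median signal of their arrays, where background cannot be told from low expression, and all 4 ATF4 values lay above it.

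Of the 3 actin genes, 2 had a higher mean with ATF4 and 1 a lower mean. Enah (Mena), which lengthens actin filaments at the leading edge, ranged from 5.06 to 5.53 with empty vector and from 5.51 to 5.67 with ATF4. It differed by 0.16, 0.57, 0.29 and 0.07, with a mean of 0.27 ± 0.22 (SD, n = 4) that was 0.17 without experiment 2. Tpm4, a tropomyosin of the cytoskeleton outside the sarcomere, ranged from 6.55 to 6.81 with empty vector and from 6.52 to 7.19 with ATF4. Its differences of 0.08, 0.63, -0.30 and 0.19 averaged 0.15 ± 0.38 (SD, n = 4). The Tpm4 mean rested on experiment 2, without which it was -0.0105, and it was 0.30 without experiment 3.

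Dstn codes for destrin, which severs and depolymerises actin filaments. Its level was 5.19, 5.38, 5.75 and 5.74 with empty vector and 4.73, 4.57, 5.17 and 5.21 with ATF4. The highest ATF4 array lay just above the lowest empty vector array, experiments 3 and 4 were high in both groups, and each experiment on its own was lower with ATF4. The differences of -0.46, -0.80, -0.58 and -0.53 averaged -0.59 ± 0.15 (SD, n = 4), a 1.51-fold lower level. Of 10 smooth muscle and pericyte markers, 5 were lower and 5 higher, with a median of -0.0018. Those of smallest p were Tagln at -0.56 (SE 0.17, adjusted p = 0.754, limma), Rgs5 at -0.45 (SE 0.16, adjusted p = 0.781, limma), Myh11 at -0.29 (SE 0.11, adjusted p = 0.794, limma) and Cspg4 at 0.27 (SE 0.15, adjusted p = 0.846, limma). At an unadjusted p under 0.05 in limma 3 of the markers were lower and 0 higher, where 2.66% and 3.16% of all genes were. The mean difference of the 10 markers was -0.13, -0.05, -0.08 and -0.09 in experiments 1 to 4. The sum of their log2 levels ran from 55.1 to 56.0 on control arrays and from 54.2 to 54.7 on ATF4 arrays, so the groups did not overlap. The part of these cells in the Dstn difference was not tested.

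**Figure D3:**
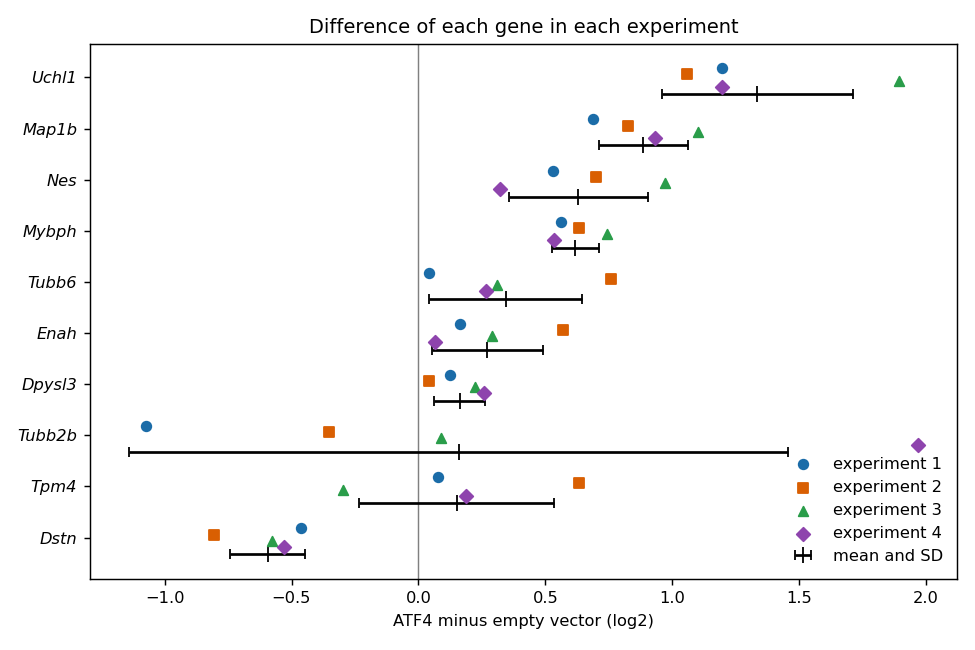
ATF4 minus empty vector (x axis, log2) for each of the 10 genes (y axis), 1 point per experiment and the mean with SD below the points. Uchl1 has the highest mean at 1.34, Mybph an SD of 0.09 and Tubb2b an SD of 1.30.

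Experiments differed in how far the genes moved. The median of the 10 differences was 0.14, 0.63, 0.30 and 0.29 in experiments 1 to 4, where the median of all genes was -0.01, 0.0016, 0.01 and 0.08. Experiment 2 held the difference of greatest size for 4 genes, experiment 3 for another 4 and experiment 4 for 2, while experiment 1 held it for none of the 10. Without experiment 1 the median over the 10 genes was 0.51. The spread of the differences over experiments, a median SD of 0.25 over the 10 genes, was close to the 0.26 over all genes.

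Other genes of the same structures were taken from lists written with earlier results of these data known. Of the 102 genes measured on 10 such lists, 1 passed the threshold as higher, the fetal noncoding RNA H19 (1.22, SE 0.10, adjusted p = 0.025 by limma). As lower 0 passed, and over all probe sets 0.0179% passed in either direction. Without the pairing H19 had the same difference and did not pass (adjusted p = 0.163 by limma), while Tnnt2 did (adjusted p = 0.0335). With any 1 experiment left out H19 differed by 1.18 to 1.25 and did not pass (adjusted p from 0.0669 to 0.211). At an unadjusted p under 0.05 in limma 13 were higher and 4 lower, where 3.16% and 2.66% of all genes were. Of these 13 and 4, 9 and 0 came from the list of immature or regenerating fibre genes.

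Further microtubule genes showed no common direction. Of 3 other β-tubulins 2 were higher, with a median of 0.0049. Tubb2a differed by -0.27 (SE 0.27, adjusted p = 0.880), Tubb4a by 0.01 (SE 0.15, adjusted p = 0.995) and Tubb5 by 0.0049 (SE 0.17, adjusted p = 0.998, all limma). Of 6 other tubulins 5 were lower, with a median of -0.17, among them Tubd1, δ-tubulin of centrioles, at -0.45 (SE 0.12, adjusted p = 0.754, limma), Tuba4a at -0.23 (SE 0.11), Tubg2 at -0.23 (SE 0.13) and Tubg1 at -0.11 (SE 0.11). Of 25 microtubule-associated genes 14 were higher, with a median of 0.0033, and 1 was higher and 2 lower at an unadjusted p under 0.05. Dclk1, a doublecortin-like kinase, differed by 0.43 (SE 0.11, adjusted p = 0.719), Trim54, a muscle RING-finger protein that binds microtubules, by -0.28 (SE 0.10, adjusted p = 0.789), Clasp2 by -0.30 (SE 0.13, adjusted p = 0.823) and Clip1 by -0.29 (SE 0.13, adjusted p = 0.846, all limma). The 4 relatives of Dpysl3 were all higher by little, Dpysl5 by 0.15 (SE 0.12), Dpysl4 by 0.16 (SE 0.14), Crmp1 by 0.12 (SE 0.11) and Dpysl2 by 0.11 (SE 0.13), with 0 past the threshold, and 0 of the 4 kept 1 sign in all experiments.

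Intermediate filament genes had 12 of 14 members higher, with a median of 0.06, and 0 passed. Krt18, a keratin of simple epithelia, had the smallest p, with differences of 0.81, 0.49, 1.503 and 1.47 and a mean of 1.07 (SE 0.19, adjusted p = 0.274, limma). Its groups did not overlap. The neurofilament genes Nefm and Nefl differed by 0.34 (SE 0.12, adjusted p = 0.766) and 0.31 (SE 0.12, adjusted p = 0.787), and Synm, synemin, by -0.26 (SE 0.10, adjusted p = 0.804, all limma). Relatives of Uchl1 went both ways, Uchl5 by -0.28 (SE 0.14) and Bap1 by 0.14 (SE 0.12).

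Among 30 actin regulators 13 were higher, the median was -0.01, and 0 were at an unadjusted p under 0.05 in limma in either direction. Cfl1 and Cfl2, the cofilins that share the activity of Dstn, differed by 0.13 (SE 0.19, adjusted p = 0.926) and 0.06 (SE 0.11, adjusted p = 0.949, both limma). Ssh1, a cofilin phosphatase, differed by 0.22 (SE 0.11), Pfn2, a profilin, by -0.28 (SE 0.16), and the tropomodulins Tmod3 and Tmod4 by -0.22 (SE 0.12) and -0.19 (SE 0.12). The other tropomyosin genes Tpm1, Tpm2 and Tpm3 differed by -0.05 (SE 0.09), 0.01 (SE 0.09) and -0.16 (SE 0.11). The thick filament list had a median of 0.04 over its 5 genes, 3 of them higher, and the relatives of Mybph, Mybpc1, Mybpc2 and Mybpc3, differed by -0.06 (SE 0.10), 0.04 (SE 0.09) and 0.20 (SE 0.15). The adjusted p of these 10 genes, from Ssh1 on, and of the tubulins and the relatives of Dpysl3 and Uchl1 given without one, was at least 0.846 by limma.

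Genes of immature or regenerating fibres were higher in 10 of 10, with a median of 0.91. This list was written with the values of several of its genes known, so its count is no independent evidence. Besides H19, the genes of smallest p were Tnnt2, embryonic and cardiac troponin T, at 1.42 (SE 0.16, adjusted p = 0.0741), Ankrd1 at 1.20 (SE 0.14, adjusted p = 0.0741) and Igf2 at 0.96 (SE 0.14, adjusted p = 0.131, all limma).

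**Figure D4:**
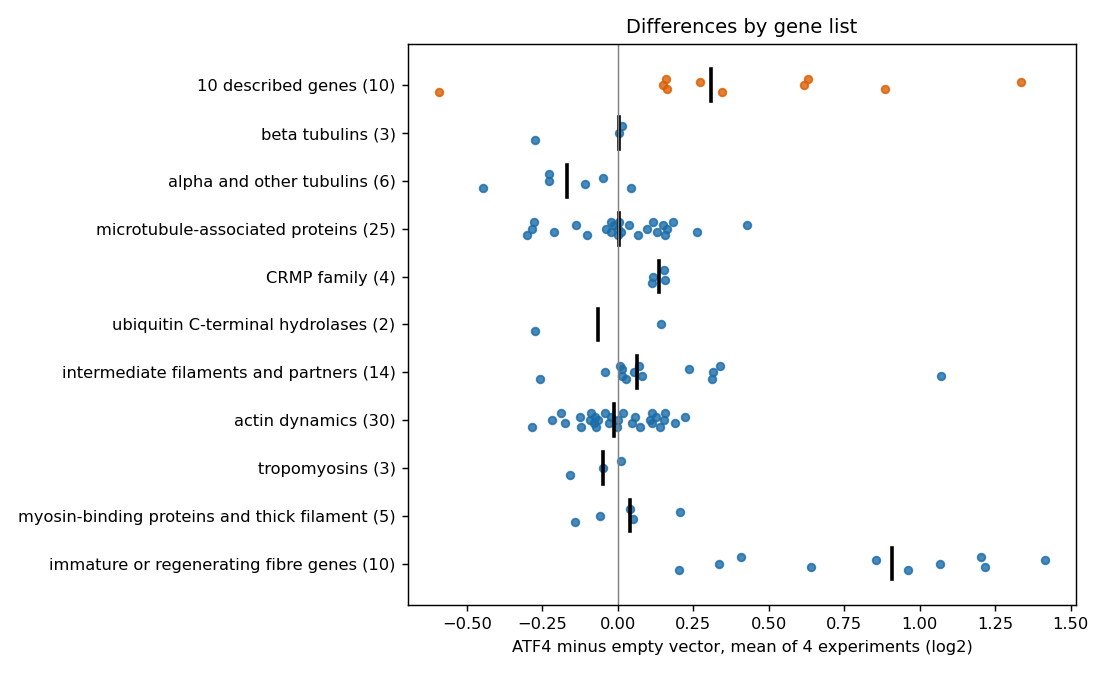
Mean difference over 4 experiments (x axis, log2, ATF4 minus empty vector) of the 10 described genes and of the measured genes of each list (y axis, number of genes in brackets); a point is 1 gene and a black bar the median. The medians are 0.0049 for β-tubulins, -0.17 for other tubulins, 0.0033 for microtubule-associated genes, -0.01 for actin regulators and 0.91 for immature fibre genes.

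Markers of other cells of the muscle are given too, first of nerve, since Map1b, Uchl1, Tubb2b and Dpysl3 are also neuronal genes. Of 9 neuron markers 8 were higher, Nefm and Nefl among them, with a median of 0.14, and Gap43 differed by 0.43 (SE 0.18, adjusted p = 0.822, limma). Their summed log2 level was 33.4 to 35.7 on control arrays and 34.3 to 37.6 on ATF4 arrays, and 7 of the 9 lay below the median signal of all probe sets. Of 5 Schwann cell markers 4 were higher, with S100b at 0.46 (SE 0.13, adjusted p = 0.754, limma) and summed levels of 20.4 to 22.9 and 21.6 to 23.4. Markers of satellite cells and myoblasts, which can express nestin too, were higher in 8 of 9, with a median of 0.09, and their sums were 38.6 to 40.9 and 39.9 to 41.0. Macrophage markers were higher in 9 of 11, with a median of 0.20, C1qb at 0.55 (SE 0.14, adjusted p = 0.719, limma) and sums of 67.1 to 78.8 and 66.7 to 79.3. Of 9 fibroblast markers 6 were higher, with a median of 0.18, Dpt at 0.32 (SE 0.11, adjusted p = 0.779, limma) and sums of 57.1 to 60.5 and 57.5 to 61.1. Endothelial markers leaned the other way, with 5 of 8 lower and 3 higher, a median of -0.03 and Tek at -0.33 (SE 0.12, adjusted p = 0.787, limma). The groups overlapped in all 5 sums. The mean difference of the neuron, Schwann cell, satellite cell, fibroblast and endothelial markers was largest in experiment 4, at 0.29, 0.28, 0.26, 0.44 and 0.27. For the endothelial markers it was -0.01, -0.13 and -0.21 in experiments 1 to 3. That of the macrophage markers was lowest there, at -0.03. In experiment 4 the median difference over all genes was 0.08, and the array medians were 4.29 with empty vector and 4.44 with ATF4. The part of these cells in the differences of the 10 genes was not tested.

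The genes with the differences most like those of the 9 genes other than Dstn were sought among 7624 genes above the median level. The mean of the 9 genes was 0.26, 0.54, 0.59 and 0.64 in experiments 1 to 4. Tubb2b held the lowest of the 9 differences in experiments 1 and 2, at -1.07 and -0.35, and the highest in experiment 4, at 1.97. The rise of this mean over the experiments therefore leans on Tubb2b, and the search was not run without that gene. The smallest mean absolute deviation from the mean of the 9 genes over the 4 experiments was that of Prr15l, at 0.08. Next came Myog, the myogenic factor myogenin, and Hpgds, both at 0.11, and Aig1, Olfr1395 and Kcnn3, at 0.12 each. Myog differed by 0.15, 0.27, 0.55 and 0.66. For Dstn the closest were Nkrf at 0.05, Gzmb at 0.12 and Dcun1d2 at 0.14. Among the 9 genes, Mybph was nearest to the mean of the other 8, with a deviation of 0.18, and Tubb2b farthest, with 1.14.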

How the data were processed

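RNA of 8 muscles was amplified and biotin-labelled for exon arrays, per the labels' protocols. The authors deposited log2 values after RMA (background correction, normalization, summary per probe set), per the submitters' processing notes. Its version, its settings and the role of the build hg18, which these notes name, were not given in the sources used here. Of 16755 probe sets, 14996 carry 1 gene, 1019 several and 740 none. Without detection calls, background cannot be told from low expression, and the number of arrays limits precision.

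ATF4 minus empty vector was fitted over all probe sets with limma 3.58.1 (R 4.3.3, statmod 1.5.0), with experiment as a fixed block, a trended variance prior, two-sided tests, Benjamini-Hochberg adjustment and a threshold of 0.05. The pairing comes from the series design (right against left muscle). Deviations from the group mean correlated within pairs by 0.07, 0.31, 0.55 and 0.05. P-values rest on the spread between these experiments, which may be technical, and on the variance prior fitted over all probe sets. The prior had 4.96 degrees of freedom, against 3 residual ones per probe set. The fit was tested on simulated data. The members and lists were chosen with earlier results of these data known. Genes named are the 10, Atf4, single genes past the threshold, all measured genes of the small families, up to 4 of smallest p per other list described, and the nearest in difference. Alternatives covered blocks, priors, normalization, filters on dim probe sets, averages and leaving out experiments.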

Additional observations from a re-analysis of the deposited data

Results flagged for a closer look

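Of 66 groups of 4 values examined, 4 had 1 value far from the other 3, where chance gives 3.3. The Uchl1 difference of experiment 3 was 1.89 against 1.06 to 1.20 in the others. The mean of the intermediate filament list on the ATF4 array of experiment 3 was 5.37 against 5.51 to 5.53. With empty vector in experiment 3, the thick filament list mean was 7.63 against 7.80 to 7.83, and the macrophage marker mean was 7.16 against 6.10 to 6.26. All 4 flagged values belong to experiment 3. For these lists the other array of experiment 3 was extreme in the same direction within its group. With ATF4 it held the lowest thick filament mean, 7.62, and the highest macrophage mean, 7.21. With empty vector it held the lowest intermediate filament mean, 5.25.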

How the results depend on the processing

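Under median centring and quantile normalization all 20 values of the 10 genes kept their direction and lay within 1 SD of the value reported. Leaving out an experiment or taking the median over experiments cannot move a value by more than 1 SD, so for these the genes that changed sign are given with their extremes. Tubb2b was -0.44 without experiment 4, 0.57 without experiment 1 and -0.13 as the median over experiments, and Tpm4 was -0.0105 without experiment 2 and 0.30 without experiment 3. The median of the 10 was 0.27 with median centring, 0.38 with quantile normalization, 0.29 without the pairing and 0.27 to 0.51 without each experiment in turn. The count of probe sets past the threshold was 3 with the replicate block (H19 and Tnni1 among them) and 3 without it (Tnni1 and Tnnt2 among them), 13 with a random block, 0 with a constant variance prior, 7 and 12 without the dimmest 25% and 50%, 0 with median centring, 2 with quantile normalization and 0 to 2 without each experiment. The 102 listed genes gave 1 call with the replicate block (H19) and 1 without it (Tnnt2), 5 with a random block, 0 with a constant prior, 3 and 4 without the dimmest 25% and 50%, 1 with quantile normalization (H19), 0 with median centring and 0 without any 1 experiment, though H19 then still differed by 1.18 to 1.25. Their count at an unadjusted p under 0.05 ran from 11 to 17 without each experiment, the lowest without experiment 3, and was 13 without the replicate block. The cause of these changes was not tested. Each gene had 1 probe set, so averaging probe sets changed nothing.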
